A study of Mus musculus with 4 samples.

Results

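The genes described here encode 10 transcription factors of the AP-1 family and its close partners, *Fos*, *Fosb*, *Fosl2*, *Jun*, *Junb*, *Jund*, *Atf3*, *Batf3*, *Maff* and *Mafk*, measured by RNA-Seq in sorted hematopoietic stem cells (HSCs). They were selected by symbol from a list drawn up with earlier results of these same libraries known, in particular their differences between the libraries lettered A and B, so those differences and the genotype differences are given as descriptions. Where a fit across all genes counts a member among its calls, the count is given and nothing is read from it. Rows were found for 9 of the 10 among 19354 genes, and *Batf3* had no row in the values used here. Of the 9, 8 passed the filter of a mean of at least 1 CPM (counts-per-million) over the 4 libraries, and *Jund* did not.

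HSCs (LSK FLT3- CD48- CD150+ cells) were purified by flow cytometry from mice 8 to 16 weeks old that carried *Mx1-Cre* and either wild-type *Id2* (Id2+/+, 14 mice) or a floxed *Id2* gene (*Mx1-Cre* Id2 fl/fl, 15 mice, called Id2Δ/Δ after deletion). *Mx1-Cre* is switched on by interferon, which is raised here by the double-stranded RNA analog pIpC, and both genotypes carried the transgene and were taken 2 weeks after pIpC, so no library shows HSCs that had not seen pIpC. The cells were pooled, and each genotype gave 2 libraries, A and B, over 2 experiments. The labels do not say whether a letter marks an experiment, a pool or a run, so what sets A apart from B cannot be told from them.

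AP-1 is not 1 protein but a set of pairs. FOS family proteins pair with JUN family proteins through leucine zippers, JUN proteins also pair with each other and with ATF3 or BATF proteins, and the small MAF proteins MAFF and MAFK, which lack a transactivation domain, pair mainly with CNC factors such as NFE2 and NRF2. Several of these genes, *Fos*, *Fosb*, *Jun*, *Junb* and *Atf3* among them, are immediate-early genes: their transcripts rise within minutes of a mitogen, cytokine or stress signal, without new protein synthesis, and decay quickly.

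The stretches of 250 bases before the transcription start are shown for the 5 immediate-early members and for *Mafk*, the member with the smallest difference between letters. They are RefSeq windows on GRCm38.p6, each written 5′ to 3′ on the strand of its gene. Capitals mark the 5-letter first part of the cyclic AMP response element (TGACG, or CGTCA on the other strand) and the TATA box (TATAAA).
Fos, chr12:85473640-85473889, plus strand: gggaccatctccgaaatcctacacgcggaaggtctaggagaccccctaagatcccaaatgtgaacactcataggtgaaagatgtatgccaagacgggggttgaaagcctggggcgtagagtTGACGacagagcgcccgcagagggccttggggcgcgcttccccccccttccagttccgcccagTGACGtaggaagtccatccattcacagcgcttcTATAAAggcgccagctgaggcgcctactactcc
Fosb, chr7:19310046-19310295, minus strand: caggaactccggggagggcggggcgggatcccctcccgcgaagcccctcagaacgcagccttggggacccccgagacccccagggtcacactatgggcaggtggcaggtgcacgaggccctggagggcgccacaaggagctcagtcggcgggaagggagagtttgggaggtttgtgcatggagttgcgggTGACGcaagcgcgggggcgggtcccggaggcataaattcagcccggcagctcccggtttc
Jun, chr4:95052223-95052472, minus strand: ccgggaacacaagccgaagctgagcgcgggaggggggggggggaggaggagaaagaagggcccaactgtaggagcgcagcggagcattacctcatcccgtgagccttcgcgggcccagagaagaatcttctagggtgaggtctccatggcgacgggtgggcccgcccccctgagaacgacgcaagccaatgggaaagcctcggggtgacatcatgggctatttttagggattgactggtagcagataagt
Junb, chr8:84978749-84978998, minus strand: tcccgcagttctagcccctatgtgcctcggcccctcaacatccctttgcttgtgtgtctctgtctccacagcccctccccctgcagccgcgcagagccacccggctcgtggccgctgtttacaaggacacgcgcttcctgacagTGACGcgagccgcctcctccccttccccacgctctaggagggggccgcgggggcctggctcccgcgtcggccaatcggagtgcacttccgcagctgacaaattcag
Atf3, chr1:191183334-191183583, minus strand: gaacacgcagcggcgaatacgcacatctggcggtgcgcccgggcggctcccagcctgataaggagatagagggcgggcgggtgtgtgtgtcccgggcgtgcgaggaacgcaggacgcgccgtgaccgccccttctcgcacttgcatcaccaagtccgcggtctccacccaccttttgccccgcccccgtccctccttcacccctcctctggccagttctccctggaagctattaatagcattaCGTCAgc
Mafk, chr5:139791286-139791535, plus strand: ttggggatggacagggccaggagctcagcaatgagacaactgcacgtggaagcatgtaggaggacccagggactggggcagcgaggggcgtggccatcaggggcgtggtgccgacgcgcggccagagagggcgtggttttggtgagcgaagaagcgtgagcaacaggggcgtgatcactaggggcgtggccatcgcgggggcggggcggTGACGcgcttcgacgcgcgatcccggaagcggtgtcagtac

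The full cyclic AMP response element, TGACGTCA, is the site to which CREB and ATF proteins bind. The 10 genes have 12 windows, since *Maff* has 3. The element was found in 1 of the 12, a window of *Maff*, against 1.55% of 32841 windows of the same length. The TGACG letters, which the full element contains, were in 7 of the 12 windows, those of *Fos*, *Fosb*, *Junb*, *Atf3* and *Mafk* and 2 of *Maff*, and in 17.8% of all windows. This shorter motif was added after the windows had been seen. In *Fos* the letters occurred at -129 to -125 and at -66 to -62, with the TATA box at -33 to -28. *Mafk* holds them at -41 to -37, and the windows of *Jun* and *Fosl2* do not hold them. The AP-1 site (TGACTCA or TGAGTCA) occurred in 0 of the 12 and in 4.46% of all windows, and the CArG box of serum response factor in 0 and in 1.47%. The GC box (GGGCGG) was in 9 of the 12 and in 32.7% of all windows. All motifs were read on both strands, and a match or its absence describes the letters of the window only.

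The deposited values are log2 CPM, quantile-normalized so that every library has a median of 3.92, and the depths recovered from the low values were about 14500000 to 18200000 reads. A count of 0 is compatible with up to 3 reads, or 0.165 to 0.207 CPM here. The targeted gene *Id2* was covered by 93 reads in A and 98 in B of the Id2+/+ genotype, and by 0 in either Id2Δ/Δ library. All 10 HSC markers examined were listed. They summed to 5479 and 5381 CPM in the Id2+/+ A and B libraries and to 3888 and 4504 CPM in the Id2Δ/Δ ones. In 6 of the 10 both Id2Δ/Δ libraries lay below both Id2+/+ libraries (15.8% of all genes), and in 1 both lay above (19% of all genes). Markers of neutrophils were present at lower levels and differed between letters, as given beside the letter comparison. In bulk RNA, fewer cells of a type and less RNA per cell cannot be told apart.

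*Fos* and *Jun* were the most abundant of the factors. On the scale of CPM per kilobase of annotated exon, *Jun* ran from 221 to 728, *Fos* from 205 to 524 and *Junb* from 109 to 297 over the 4 libraries. *Jun* lay above *Fos* in 3 libraries and below it in the Id2Δ/Δ A library (221 against 230), so these neighbours did not differ beyond their spread, whereas *Junb* lay under both in every library. *Fosb* (7.84 to 49.6) and *Mafk* (18.8 to 20) exchanged places: *Fosb* was the lower in both A libraries and the higher in both B libraries. *Atf3* moved furthest in this order, from 0.667 and 0.288 in the A libraries to 9.3 and 6.97 in the B libraries, which took it from below *Fosl2* (1.96 to 5.52) and *Maff* (2.16 to 3.71) to above both.

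**Figure D1:**
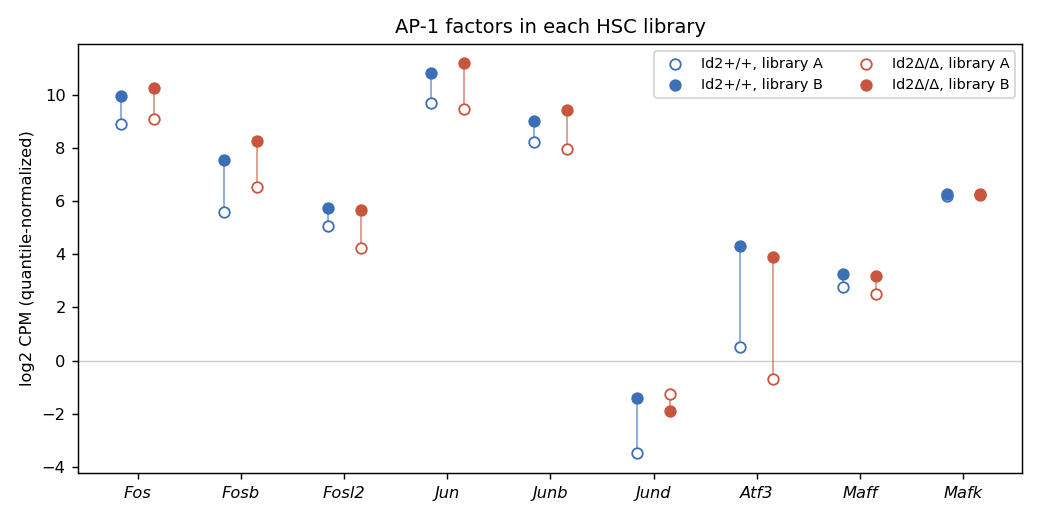
Level of each AP-1 factor (log2 CPM, vertical axis) in the 4 libraries, with blue points for Id2+/+ and red points for Id2Δ/Δ, open for library A and filled for library B, and a line joining the libraries of a genotype. Filled points lie above open points in both genotypes for *Fos*, *Fosb*, *Fosl2*, *Jun*, *Junb*, *Atf3* and *Maff*, while the points of *Mafk* coincide between 6.19 and 6.28 and those of *Jund* rest on 2 to 6 reads.

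*Fos* (ENSMUSG00000021250.13, chromosome 12 of GRCm38 from 85473890 to 85477273, plus strand) encodes the founding FOS protein, an activator that needs a JUN partner to bind DNA. Its log2 CPM was 8.92 and 9.94 in the Id2+/+ A and B libraries and 9.08 and 10.27 in the Id2Δ/Δ A and B libraries. Both B libraries were above both A libraries, by 2.03-fold in Id2+/+ and 2.28-fold in Id2Δ/Δ HSCs. The mean log2 difference of B over A was 1.11 (standard error 0.13 from limma, 2 libraries each). The 2 libraries of a letter are 1 of each genotype. Standard errors and p-values between letters, here and below, therefore carry the genotype difference and not a spread between replicates.

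*Fosb* (ENSMUSG00000003545.3, chromosome 7 from 19302696 to 19310051, minus strand) encodes a FOS protein that also exists as a shorter, longer-lived form. It was at 5.61 and 7.56 log2 CPM in the Id2+/+ A and B libraries and at 6.52 and 8.27 in the Id2Δ/Δ ones. The B libraries were 3.85-fold and 3.37-fold above the A libraries of their genotype, a mean log2 difference of 1.85 (standard error 0.29). Within a letter, the Id2Δ/Δ library was the higher of the pair, by 0.91 among A libraries and by 0.72 among B libraries.

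*Fosl2* (ENSMUSG00000029135.10, chromosome 5 from 32135801 to 32157842, plus strand) encodes FRA2, which is usually induced later than FOS. Its values were 5.06 and 5.74 log2 CPM in Id2+/+ and 4.24 and 5.68 in Id2Δ/Δ HSCs, in the order A, B. The SD of the B libraries was 0.04 (n = 2) and that of the A libraries 0.58 (n = 2). Each of these SDs is taken over 1 library of each genotype, so it restates the genotype difference and is not replicate scatter. The step from A to B was 1.61-fold in Id2+/+ and 2.72-fold in Id2Δ/Δ HSCs.

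*Jun* (ENSMUSG00000052684.4, chromosome 4 from 95049034 to 95052222, minus strand, a single exon) encodes c-JUN, which binds DNA as a dimer with itself or with FOS. It was at 9.69 and 10.84 log2 CPM in the Id2+/+ A and B libraries and at 9.46 and 11.18 in the Id2Δ/Δ ones. Both B values were above both A values, by 2.23-fold and 3.3-fold, and the mean log2 difference of 1.44 had a standard error of 0.13. The antisense gene *Junos* shares 689 bases with *Jun* and was also higher in B, by log2 differences of 1.10 in Id2+/+ and 1.69 in Id2Δ/Δ HSCs. Strand use in counting is not given in the sources used here, and without it reads of the shared stretch cannot be told apart.

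*Junb* (ENSMUSG00000052837.6, chromosome 8 from 84974484 to 84978718, minus strand) encodes a JUN protein known to restrain the proliferation of HSCs and myeloid progenitors. Its log2 CPM was 8.22 and 9.01 in Id2+/+ and 7.97 and 9.42 in Id2Δ/Δ HSCs, in the order A, B. The groups of A and B libraries did not overlap, with steps of 1.73-fold and 2.74-fold. *Prdx2*, which shares 351 bases with *Junb* on the opposite strand, differed by -0.03 and -0.18 on the log2 scale, smaller than the steps of *Junb*.

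*Jund* (ENSMUSG00000071076.6, chromosome 8 from 70698949 to 70700616, plus strand) encodes the JUN protein that most cell types express steadily. It was listed at 2 and 6 reads in the Id2+/+ A and B libraries and at 6 and 4 reads in the Id2Δ/Δ ones, which is 0.0891 to 0.423 CPM. The exact 95% Poisson intervals, which cover counting error only, ran from 0.242 to 7.22 for 2 reads and from 2.2 to 13.1 for 6, so no difference was detectable at this depth. Of its 1668 exon bases, 919 are shared with the antisense gene *Gm11175*, which had no row, and the part of this overlap in the low value was not tested.

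*Atf3* (ENSMUSG00000026628.13, chromosome 1 from 191170296 to 191218039, minus strand) encodes a stress-induced factor that pairs with JUN proteins and often represses, and the RefSeq start of the window printed above lies inside this span. It was at 0.52 and 4.32 log2 CPM in the Id2+/+ A and B libraries and at -0.69 and 3.91 in the Id2Δ/Δ ones. These correspond to 21 and 312 reads and to 10 and 280 reads. The exact 95% Poisson intervals were 13 to 32.1 and 4.8 to 18.4 in the A libraries and 278 to 349 and 248 to 315 in the B libraries. They cover counting error only and not the spread between libraries. *Atf3* had the steepest step of the tested members, 14-fold in Id2+/+ and 24.2-fold in Id2Δ/Δ HSCs, and a mean log2 difference of 4.20 (standard error 0.51), an 18.4-fold step. The A libraries lie near 1 CPM, and with a pseudocount of 1 CPM the mean log2 difference was 3.21, a 9.24-fold step.

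Of the small MAF genes among the members, *Maff* was higher in B in both genotypes, while *Mafk* differed in opposite directions (0.09 in Id2+/+ and -0.05 in Id2Δ/Δ HSCs, log2). *Maff* (ENSMUSG00000042622.13, chromosome 15 from 79346621 to 79359076, plus strand), the small MAF gene that stress and inflammatory signals induce, was at 2.76 and 3.27 log2 CPM in the Id2+/+ A and B libraries and at 2.49 and 3.20 in the Id2Δ/Δ ones, or 98, 153, 100 and 166 reads. Its B libraries were above its A libraries, by 1.43-fold and 1.64-fold, with a standard error of 0.33 on a mean log2 difference of 0.61. *Mafk* (ENSMUSG00000018143.10, chromosome 5 from 139791513 to 139802653, plus strand), the partner of NFE2 p45 in megakaryocytes and erythroid cells, was at 6.19, 6.28, 6.28 and 6.23, and its letter difference was 0.02 (standard error 0.15).

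Across the 15895 genes tested with limma, 17 passed an adjusted p-value of 0.05 between letters (0.107%), all of them higher in B, and 4 of these were members, *Fos*, *Jun*, *Junb* and *Atf3*. Since the members were chosen with this comparison known, nothing is read from that share. In 7 of the 8 members tested both B libraries lay above both A libraries, against 16.1% of all genes, and the same restriction holds. At an unadjusted p under 0.05, 465 genes were higher and 329 lower in B. The 17 calls depended on all 4 libraries: with any of the 4 left out, between 0 and 2 genes and 0 members were called. Without a trend of variance on intensity 0 genes were called, while 794 had an unadjusted p under 0.05.

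**Figure D2:**
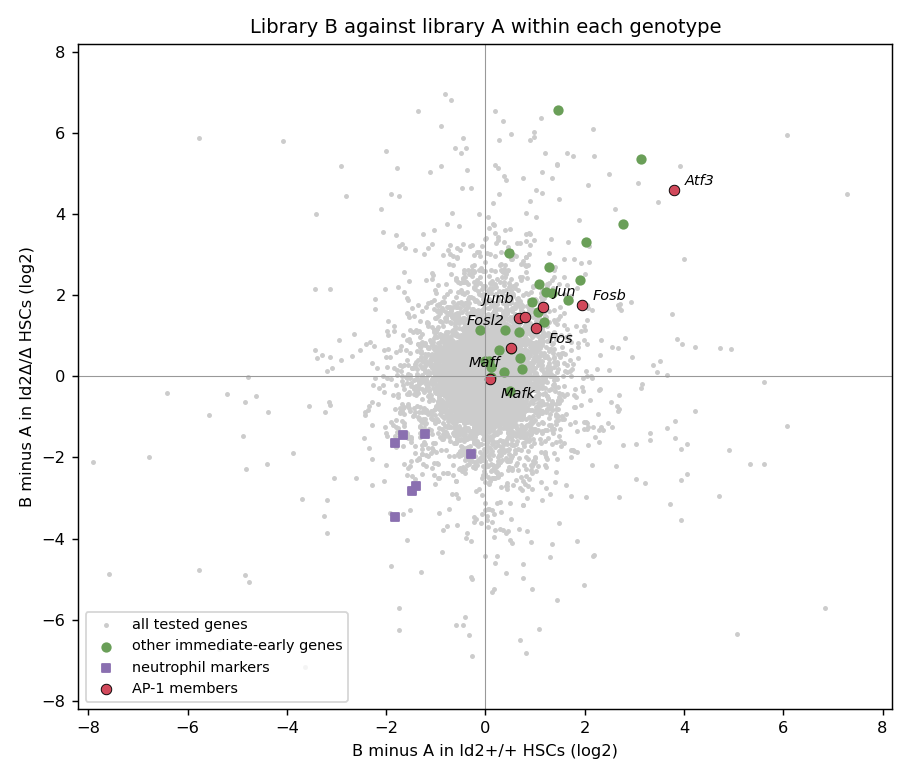
Log2 difference of library B over library A in Id2+/+ HSCs (horizontal axis) and in Id2Δ/Δ HSCs (vertical axis) for the 15895 tested genes in gray, with AP-1 members in red, other immediate-early genes in green and neutrophil markers as purple squares. *Atf3* lies at 3.80 and 4.60, 6 further members lie above 0 on both axes, *Mafk* lies near the center, and the 7 neutrophil markers lie below 0 on both axes.

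Genes known to be induced together with *Fos* and *Jun* were also higher in B. This list was drawn up with earlier results of these libraries known as well, so its counts and p-values describe these libraries and are not independent evidence. Of 30 other immediate-early genes, 29 were listed and 27 tested, and 7 passed the adjusted threshold, all higher in B, beside 0.107% of all genes. All 27 had a positive mean difference, and in 23 both B libraries were above both A libraries, beside 16.1% of all genes. The median log2 difference of the 27 was 0.74 in Id2+/+ and 1.34 in Id2Δ/Δ HSCs, where the median over all tested genes was -0.01 in each genotype.

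The 6 genes named next are those of that list that passed the threshold with the smallest p-values, so they do not show its span. Over the 27 tested genes the mean log2 difference ran from 0.05 for *Myc* to 4.25 for *Nr4a3*, whose A libraries lie near the floor. *Nr4a1*, an orphan nuclear receptor induced by many signals, was at 5.79 and 8.56 log2 CPM in the Id2+/+ A and B libraries and at 4.50 and 8.27 in the Id2Δ/Δ ones (log2 difference 3.27, standard error 0.33, adjusted p = 0.00764 from limma). *Klf6* was at 7.84 and 9.74 and at 7.83 and 10.21 (2.14, standard error 0.15, adjusted p = 0.00112 from limma). *Klf2*, a zinc finger factor linked to quiescence in lymphocytes, *Egr1*, the serum-induced factor known to hold HSCs in quiescence, *Nfkbiz*, a nuclear IκB protein, and *Socs3*, a brake on cytokine signaling, were higher in B by 2.67, 1.66, 1.78 and 1.70 on the log2 scale. The adjusted p-values of these 4 from limma were 0.0191, 0.0277, 0.0051 and 0.0299.

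Genes that switch AP-1 signaling off were mixed. Of 15 such genes tested, 1 passed, *Dusp1*, a phosphatase that inactivates MAP kinases, which was at 9.60 and 10.47 log2 CPM in Id2+/+ and at 9.29 and 10.78 in Id2Δ/Δ HSCs (adjusted p = 0.0191 from limma). *Zfp36*, which promotes decay of AU-rich transcripts such as that of *Fos*, was 0.83 and 1.26 higher in B on the log2 scale without passing the threshold. In 7 of the 15 both B libraries lay above both A libraries (16.1% of all genes), and in 3 both lay below (16.8% of all genes). At an unadjusted p under 0.05 in limma, 5 were higher in B (2.93% of all genes) and 0 lower (2.07% of all genes).

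The other subunits and the inputs of AP-1 gave no call. None of the 6 other AP-1 subunit genes (*Fosl1*, *Batf*, *Batf2*, *Jdp2*, *Atf2* and *Atf7*) passed in limma (0.107% of all genes did). An unadjusted p under 0.05 was found for 0 of them (5% of all genes). Both B libraries lay above both A libraries in 0 (16.1% of all genes) and below both in 2, *Fosl1* and *Atf2* (16.8% of all genes). With 6 genes, nothing is read from these counts. *Fosl1*, which encodes FRA1, had 47 and 37 reads in Id2+/+ and 55 and 41 reads in Id2Δ/Δ HSCs, in the order A, B. *Atf2*, a factor activated by phosphorylation of its protein, was at 6.78, 6.54, 6.65 and 6.39 log2 CPM in the same order with Id2+/+ first. *Batf*, *Batf2*, *Jdp2* and *Atf7* differed in opposite directions in the genotypes. The median difference of the 6 was -0.22 in Id2+/+ and -0.17 in Id2Δ/Δ HSCs.

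Kinases and factors that act upstream, 24 genes that include *Mapk8*, *Mapk14*, *Srf* and the *Elk* genes, had medians of 0.06 and 0.02. Of these, 0 were called by limma and 0 had an unadjusted p under 0.05. Over all genes, 0.107% were called and 5% had such a p. The largest of their mean differences was 0.40 (standard error 0.20) for *Rps6ka4*, which encodes the histone H3 kinase MSK2. Their activity is set by phosphorylation, which transcript levels do not measure. The 10 CREB and other ATF genes had 0 calls in limma and 2 with an unadjusted p under 0.05, among them *Crem*, whose short form ICER is cyclic AMP inducible and which was 1.14 and 1.02 higher in B on the log2 scale. The 8 tested MAF and CNC genes had 0 calls, and 1, *Maf*, had an unadjusted p under 0.05, with log2 differences of -0.63 and -1.97.

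**Figure D3:**
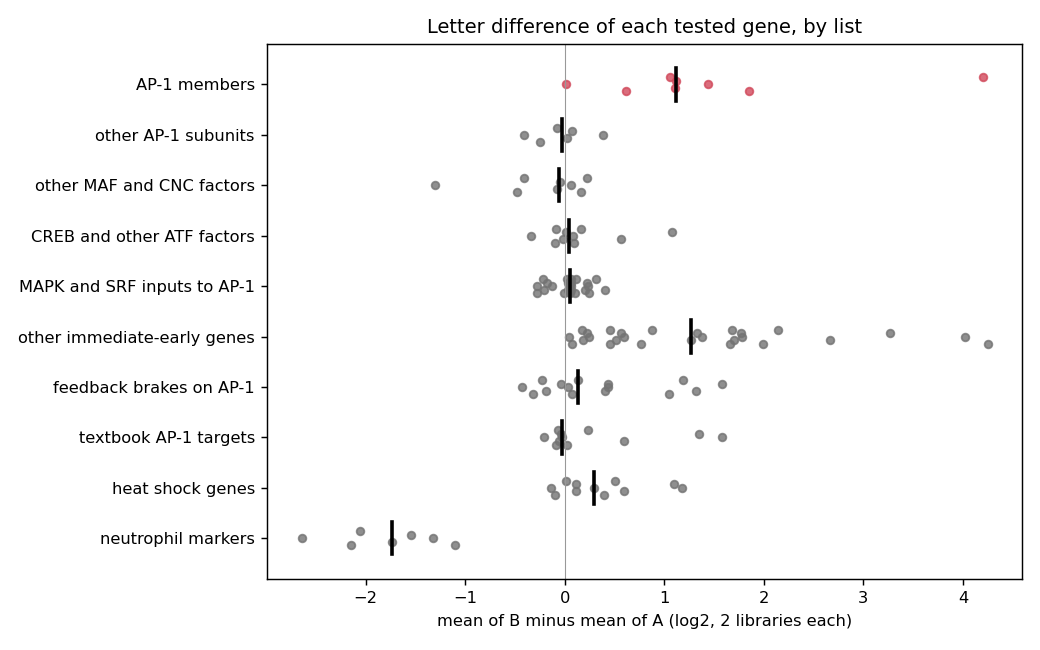
Mean log2 difference of the B libraries over the A libraries (horizontal axis) for every tested gene of 10 lists (rows), with a black bar at the list's median. AP-1 members (red) and other immediate-early genes have medians of 1.11 and 1.26, neutrophil markers a median of -1.74, and the other 7 lists plotted have medians between -0.06 and 0.30.

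Textbook AP-1 targets did not follow as a list. Of 11 tested, 0 were called by limma (0.107% of all genes) and 2 had an unadjusted p under 0.05 (5% of all genes). The medians were 0.10 and 0.04. These 2 were *Plaur*, which encodes the urokinase receptor and was 1.23 and 1.47 higher in B on the log2 scale, and *Cdkn1a*, which encodes the cell cycle inhibitor p21 and was 0.96 and 2.21 higher. The heat shock genes, 11 tested, had 0 calls in limma and 5 with an unadjusted p under 0.05, all higher in B, as were 2.93% of all genes. In 4 of the 11 both B libraries lay above both A libraries (16.1% of all genes), and in 1 both lay below (16.8% of all genes). *Hsph1* was 0.55 higher in B in Id2+/+ and 0.64 higher in Id2Δ/Δ HSCs on the log2 scale, and *Dnajb1* 0.32 and 0.69 higher. *Hspa1b*, an inducible HSP70 gene, had a log2 difference of -0.18 in Id2+/+ and 2.38 in Id2Δ/Δ HSCs. Its near-identical copy *Hspa1a* cannot be counted apart from it with certainty.

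Neutrophil markers differed between letters in the opposite direction to the AP-1 genes. All 7 markers, *Elane*, *Mpo*, *S100a8*, *S100a9*, *Ngp*, *Camp* and *Ltf*, were listed. They were lower in B than in A in both genotypes, as were 4144 of the 15895 tested genes. Of the 7, 6 had an unadjusted p under 0.05 in limma and were lower in B, beside 2.07% of all genes. The summed level of the 7 markers was 141 and 51.9 CPM in the Id2+/+ A and B libraries and 108 and 25.7 CPM in the Id2Δ/Δ ones. Monocyte and macrophage markers summed to 216 and 208 CPM in the Id2+/+ A and B libraries and to 264 and 197 CPM in the Id2Δ/Δ ones. Of the 5 listed, 4 were lower in B in both genotypes, beside the same 4144 of 15895 genes. T and NK cell markers, of which *Nkg7* and *Klrb1c* were listed, summed to 56.7 and 42.6 CPM and to 59.8 and 45.5 CPM in the same order. Erythroid markers summed to 25.3 to 39.3 CPM, megakaryocyte markers to 323 to 410 CPM and B-cell markers to 37.1 to 54.3 CPM. *Cd3e*, *Cd3d*, *Trbc2*, *Cd79a*, *Ebf1* and *Adgre1* were not listed. The part of RNA from these other cells in the letter difference of the AP-1 genes was not tested.

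The genes whose pattern over the 4 libraries was most like that of *Fos* were sought among the 10642 genes that averaged 10 CPM or more, by the root mean square difference of values centered on each gene's mean. They were *Fzd8* (0.08), *Tsc22d3* (0.08), *Zfp36* (0.09), *Dsel* (0.10) and *Jag2* (0.11). For *Jun* they were *Rgcc* (0.07), its antisense neighbor *Junos* (0.07), *9430020K01Rik* (0.12), *Dusp1* (0.13) and *Cd69* (0.14). *Fos* and *Junb* differed by 0.15 by this measure, *Jun* and *Junb* by 0.16, *Fos* and *Jun* by 0.22, and *Atf3* stood at 1.45 to 2.15 from every other tested member. With 4 points, 2 of each letter, any gene with a like step between letters comes near.

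The comparison for which the libraries were made was that of the genotypes. In 0 of the 8 tested members were both Id2Δ/Δ libraries above both Id2+/+ libraries (19% of all genes were), and in 0 were both below (15.8% were). For the 7 members with both B libraries above both A libraries such a separation was impossible, so nothing about genotype is read from these counts. Limma called 0 of 15895 genes between genotypes (0%), with a smallest adjusted p of 0.91, and 742 had an unadjusted p under 0.05. *Id2* itself, with 0 reads in both Id2Δ/Δ libraries, was not called (adjusted p = 0.91 from limma), so 0 calls do not show that genes were unchanged. The mean log2 difference of Id2Δ/Δ over Id2+/+ was 0.25 for *Fos* (standard error 0.42), 0.06 for *Jun* (0.55), 0.08 for *Junb* (0.44) and 0.81 for *Fosb* (0.69). It was -0.44 for *Fosl2* (0.45), -0.81 for *Atf3* (1.60), -0.17 for *Maff* (0.37) and 0.02 for *Mafk* (0.13). Each value had 2 libraries per genotype, and the standard errors carry the step between letters. With the letter as a term (replicate block) the differences stay as they are and the standard errors become 0.11 for *Fos*, 0.13 for *Jun*, 0.15 for *Junb*, 0.15 for *Fosb*, 0.22 for *Fosl2*, 0.47 for *Atf3*, 0.35 for *Maff* and 0.16 for *Mafk*. That fit called 1 gene between genotypes, which is not a member. With 2 libraries a group, 0.333 is the smallest two-sided p that exact permutation of the labels can reach.

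Read within a letter, the genotype differences were smaller than the letter differences for *Fos*, *Fosb*, *Jun*, *Junb* and *Atf3*. Among A libraries the Id2Δ/Δ value minus the Id2+/+ value was 0.16 for *Fos*, 0.91 for *Fosb*, -0.23 for *Jun*, -0.26 for *Junb* and -1.21 for *Atf3*. Among B libraries it was 0.33, 0.72, 0.34, 0.41 and -0.42 for the same genes. *Fos* and *Fosb* were thus the higher in Id2Δ/Δ HSCs and *Fosl2*, *Atf3* and *Maff* the lower under both letters, while *Jun*, *Junb* and *Mafk* differed in opposite directions. For *Fosl2* the A libraries differed by -0.81 and the B libraries by -0.06. With 1 library per genotype and letter these within-letter values have no replicate check.

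**Figure D4:**
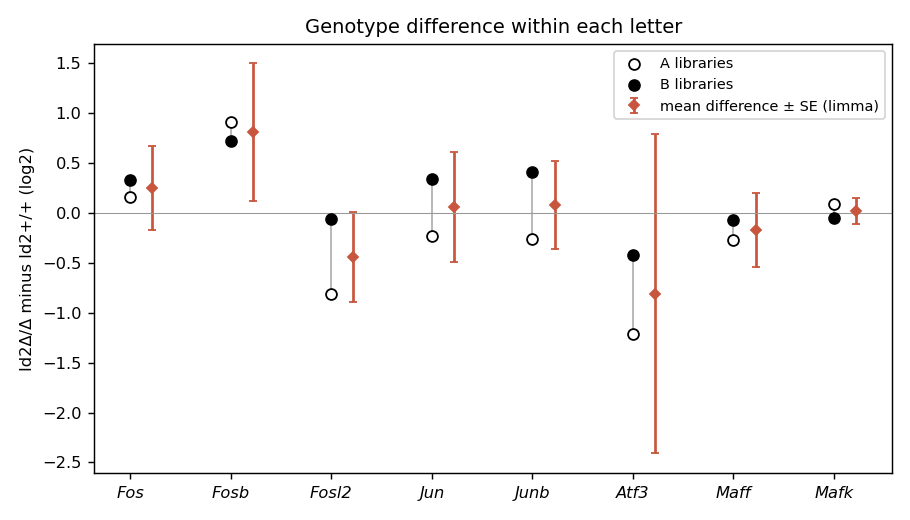
Id2Δ/Δ minus Id2+/+ on the log2 scale (vertical axis) for the 8 tested members, with open circles for the A libraries, filled circles for the B libraries and red diamonds for the mean difference ± standard error from limma (2 libraries per genotype). *Fosb* lies above 0 under both letters (0.91 and 0.72), *Jun* and *Junb* straddle 0, and the widest error is that of *Atf3* (1.60).

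Other AP-1 subunits also gave no genotype call. *Batf*, an activator in lymphocytes that pairs with JUN proteins, was at 4.55 and 4.75 log2 CPM in Id2+/+ and at 4.96 and 4.89 in Id2Δ/Δ HSCs (log2 difference 0.28, standard error 0.19, adjusted p = 0.91 from limma). Both Id2Δ/Δ libraries lay above both Id2+/+ libraries in 1 of the 6, *Batf*, and in 19% of all genes, so nothing is read from that count. In each of the other lists of the pathway limma called 0 genes between genotypes. The median genotype difference of the 27 other immediate-early genes was -0.03.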

How the data were processed

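RNA-Seq libraries of sorted HSCs, 2 per genotype, were analysed. The table that the authors deposited gives 19354 genes on a log2 scale of CPM (counts-per-million). The unit was read from the values, since CPM sum to between 999980 and 999996 per library, and the sorted columns lie within 0.1 of each other at 88.4% of ranks, as after quantile normalization. The submitters' processing notes name CASAVA 1.8.4, Trimmomatic 0.30, TopHat2 2.0.8, RSEM and STAR, and the builds mm9 and NCBIM37, with no order or role. Gene identifiers matched GENCODE M21 on GRCm38 for 99.7% of rows (82% with the same version), so coordinates, exon lengths and overlaps are those of that annotation, and promoter windows are from RefSeq (GRCm38.p6), with all 10 genes matched. Multireads of near-identical copies may be split.

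Below 32 CPM, which holds 62.1% of values, the rank of a distinct value within a library gave its reads, and depth was the median of (reads + 0.5) over CPM. These depths are approximate, since quantile normalization moved the values. No count model was run, as reads above 32 CPM were not recovered.

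The 15895 genes that averaged 1 CPM or more were compared on the deposited log2 scale with limma 3.58.1 in R 4.3.3 (lmFit, eBayes with an intensity trend, two-sided, Benjamini-Hochberg), once by genotype and once by letter, each as the only term. No test for these libraries is given in the sources used here. The script was tested on simulated data. P-values rest on the spread between these libraries of pooled cells, and not on the spread between mice. That spread holds the letter step in the genotype fit and the genotype difference in the letter fit. The members and all lists were chosen with earlier results of these data known. A rule drew genes for naming: all members, other subunits that passed the filter, *Id2*, and the 5 nearest patterns of *Fos* and of *Jun*. From each other list it drew the genes past the threshold (at most 6) and the 4 with the largest difference in each fit. Not every gene drawn from those lists is named in the text. *Gm11175*, *Prdx2* and the markers were named for overlap or cell type. The labels do not say what a letter marks, and over all tested genes libraries with the same number deviated with a correlation of only 0.0592 (2 pairs). Of the 8 tested members, 7 were higher in B in both genotypes. They were listed with that known, so nothing about pairing is read from it. The main comparison has no block, and the fit with it is given beside the genotype values. Alternatives varied the pseudocount, filter, scaling, trend, threshold, terms and libraries. The single-cell libraries of the study were not analysed here.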

Additional observations from a re-analysis of the deposited data

Results flagged for a closer look

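Among the members and the 6 other AP-1 subunits, 6 genes had steps from A to B of opposite sign in the genotypes. None of these differences was tested, since each genotype and letter has 1 library. The step in Id2Δ/Δ minus that in Id2+/+ HSCs, on the log2 scale, was -2.74 for *Jund*, which rests on 2 to 6 reads per library, and -0.14 for *Mafk*, whose 4 values lie between 6.19 and 6.28. It was -0.27 for *Batf*, 1.19 for *Batf2*, -0.67 for *Jdp2* and 0.62 for *Atf7*. *Batf2* had 314 and 300 reads in the Id2+/+ A and B libraries and 232 and 489 in the Id2Δ/Δ ones.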

How the results depend on the processing

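Between letters, the 17 genes called became 4 without a filter, 26 among genes averaging 10 CPM or more, 30 with genotype as a term, 0 without an intensity trend and 794 at an unadjusted p under 0.05. A pseudocount of 1 CPM gave 20, both other scalings 16, and an adjusted p under 0.1 gave 20. Leaving out 1 library gave 0 to 2 calls (0 without Id2+/+ A, 2 without Id2+/+ B, 0 without Id2Δ/Δ A and 0 without Id2Δ/Δ B), where fewer libraries remained and the lone library of a letter is assumed to vary like the pair. Members called were 5 with genotype as a term or a pseudocount (with *Fosb*), 1 without a filter (*Jun*) and 0 without a trend or any 1 library. Between genotypes, 0 genes were called under every alternative except the replicate block, with 1 call (*C130089K02Rik*, log2 difference -1.61), and an unadjusted p under 0.05, with 742. The replicate block changed no other genotype call.

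With each library left out in turn, the letter difference kept its sign for *Fos* (0.94 to 1.27), *Fosb* (1.40 to 2.30), *Fosl2* (0.65 to 1.47), *Jun* (1.27 to 1.61), *Junb* (0.92 to 1.33), *Atf3* (3.59 to 4.80) and *Maff* (0.48 to 0.75), but not for *Mafk* (-0.03 to 0.06). In those 7 members both B libraries lay above both A libraries. Leaving out 1 library could therefore not change their sign, and nothing is read from its being kept. The genotype difference changed sign for all 8 tested members, for instance *Fos* (-0.35 to 0.84), *Jun* (-0.80 to 0.92) and *Fosb* (-0.16 to 1.78). With 1 library left out, 1 genotype keeps both letters and the other a single letter. The step between letters therefore enters these genotype differences, and their change of sign is not read as a result about genotype. Within letters *Fos* (0.16 and 0.33) and *Fosb* (0.91 and 0.72) kept their sign. With a pseudocount of 1 CPM the letter difference of *Atf3* was 3.21. Other causes of the changes with processing were not tested. With 2 libraries per group and *Jund* at 2 to 6 reads, depth and number of libraries limit what can be seen.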
